A study of Mus musculus with 12 samples.

Results

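In CD4+ T cells of mice that lost TET2 and TET3 in their Treg lineage, 67 genes were raised over WT in DKO-moderate mice, with a group mean in DKO-severe mice of 0.67 to 1.5 times the DKO-moderate mean. They were selected on the measured values themselves. A gene was taken when its mean was at least 0.5 CPM in WT and at least 5 CPM in DKO-moderate, at least 3 times higher in DKO-moderate than in WT, and between 0.67 and 1.5 times the DKO-moderate mean in DKO-severe, with every DKO-moderate library above every WT library. CPM are reads of a gene per 1000000 reads on all genes of a library. Of 26608 genes in the files, 369 met these conditions apart from the one on DKO-severe. Of these 369 genes, 67 lay within the range, 294 were more than 1.5 times higher again in DKO-severe, and 8 were below 0.67 times. Because the values of all 3 groups chose the 67 genes, every difference between groups in them is given as a description. Where calls of edgeR on these genes are printed, the rule used the same contrasts and nothing is read from them.

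Spleen was pooled with inguinal and cervical nodes of B6 mice aged 14 weeks, CD4+ T cells negative for the FOXP3 reporter, labelled YFP(FOXP3)-, were sorted, and 1 library was made per mouse from 4 mice per group. WT mice were Foxp3Cre WT and carried the YFP and Cre fused into the *Foxp3* locus, as did both DKO groups. DKO-moderate and DKO-severe mice were Foxp3-Cre Tet2/3 fl/fl of the same genotype and were told apart by the authors by the number of cells in spleen and nodes, the lower numbers being called moderate. Cre is driven by *Foxp3*, so a sorted YFP- population can hold ex-Treg cells that lost both genes beside conventional T cells. Foxp3-Cre is also described as leaky in the study, and which cells of these libraries had lost the genes was not measured here. By qPCR the study did not detect *Tet2* in follicular helper T cells of DKO-severe mice and found it lowered in DKO-moderate mice. Its fate mapping marked nearly all FOXP3-negative follicular helper T cells of DKO-severe mice as ex-Treg cells, and a smaller share in DKO-moderate mice.

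TET proteins oxidize 5-methylcytosine at CpG sites and so take part in DNA demethylation, and Treg cells need them to keep *Foxp3* expressed. A CD4+ T cell that is activated in the spleen or a lymph node makes cytokines and TNF-family ligands that act on dendritic cells, B cells, and other T cells, changes its receptors, and rebuilds its cytoskeleton and metabolism. Follicular helper T (Tfh) cells are the CD4+ cells that help B cells in germinal centers, and a bulk library cannot tell more cells of one kind from more RNA per cell.

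Across the 67 genes the DKO-moderate mean was 3.03 to 88.0 times the WT mean (median 4.75) and the DKO-severe mean was 2.31 to 68.3 times the WT mean (median 5.87). The ratio of the DKO-severe to the DKO-moderate mean had a median of 1.26 and was above 1 for 47 genes and below 1 for 20, so most of the genes sat in the upper part of the allowed range. It was at least 1.2 for 36 genes, between 0.8 and 1.2 for 24, and at most 0.8 for 7. Many of the genes were of low abundance. The DKO-moderate mean was below 20 CPM for 34 of them and at or above 100 CPM for 8. In the fit across all genes with edgeR's quasi-likelihood test, 66 of the 67 genes passed an adjusted p of 0.05 as higher in DKO-moderate than in WT, where 12.3% of the 16035 tested genes did, and nothing is read from this count because the rule used that contrast. For DKO-severe against WT, 66 genes passed as higher, where 26.6% of all genes did. None of the 67 passed in DKO-severe against DKO-moderate in edgeR or DESeq2, where edgeR called 9.41% of all genes higher and 10.7% lower, with 0 of the 67 in edgeR and 4 in DESeq2 at an unadjusted p under 0.05. The rule again used both contrasts. The exceptions were *Enpp2* in DKO-moderate and *Car2* in DKO-severe. Each of the 4 DKO-severe libraries was above each WT library for 65 of the 67 genes (not for *Car2* and *Enpp2*), where 32.5% of all tested genes showed that order. The rule keeps the DKO-severe mean well above WT, so this count was largely set by the selection and nothing is read from it.

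**Figure D1:**
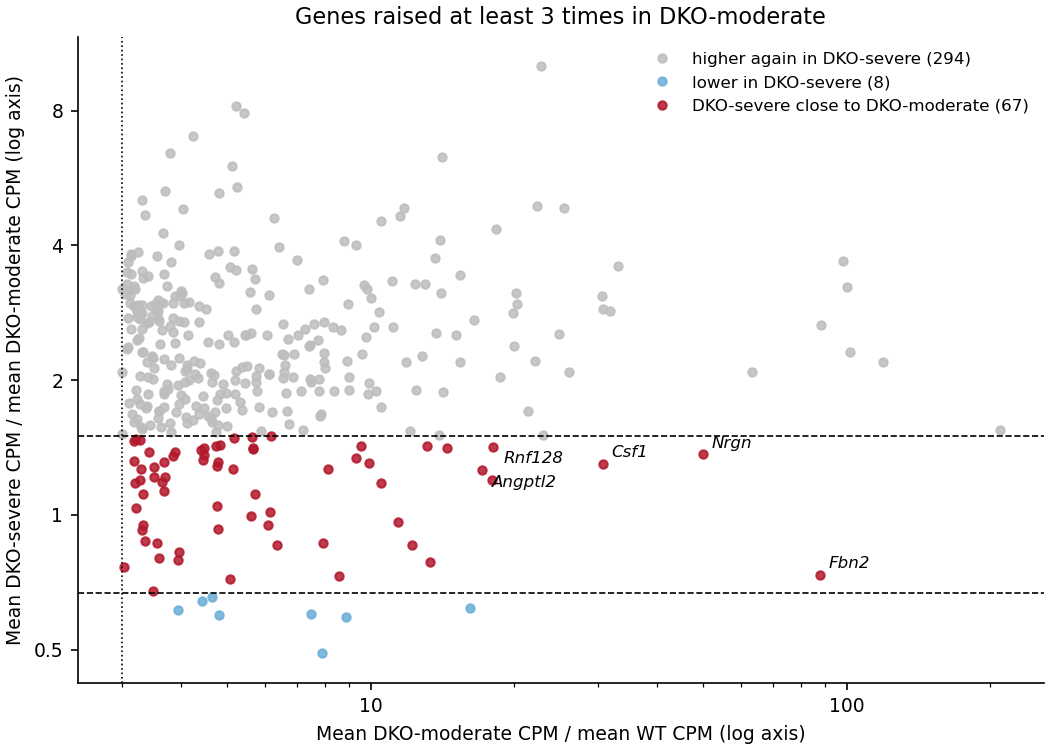
The 369 genes at least 3 times higher in DKO-moderate than in WT, with the ratio of mean DKO-moderate to mean WT CPM across (log axis) and the ratio of mean DKO-severe to mean DKO-moderate CPM upward (log axis). Dashed lines mark ratios of 0.67 and 1.5 and the dotted line a ratio of 3. The 67 red genes fill the band between the dashed lines, more of them above 1 (47) than below (20), under the 294 grey genes that are higher again in DKO-severe.

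The genes with the largest rises among the 67 were *Fbn2*, *Nrgn*, and *Csf1*. *Fbn2* encodes fibrillin 2, a protein of extracellular microfibrils. It had 1.33, 1.19, 1.53, and 3.79 CPM in WT 1 to 4, 45.7, 298, 83.6, and 262 CPM in DKO-moderate, and 94, 174, 113, and 126 CPM in DKO-severe, a mean 88 times WT in DKO-moderate. DKO-moderate 2 and 4 were above all DKO-severe libraries and DKO-moderate 1 and 3 below all of them. *Nrgn*, the calmodulin-binding protein neurogranin best known from neurons, was at 1.08, 1.1, 1.53, and 1.66 CPM in WT, 15.4, 57.6, 25.3, and 170.3 in DKO-moderate, and 106, 50.1, 103, and 109 in DKO-severe. DKO-moderate 4 alone was above the DKO-severe libraries, and its coefficient of variation (SD over mean) in DKO-moderate, 1.06, was the largest of the 67 genes. *Sccpdh*, a putative dehydrogenase, was at 1.22, 1.67, 1.42, and 3.92 CPM in WT, 5.89, 42.3, 21, and 78.5 in DKO-moderate, and 43.3, 31.6, 29.3, and 72.5 in DKO-severe.

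Secreted proteins and ligands of the TNF family formed one set of roles. *Csf1* encodes macrophage colony-stimulating factor, the growth factor of monocytes and macrophages. It was at 2.33, 2.62, 4.56, and 7.29 CPM in WT, 43.3, 204, 86.3, and 184 in DKO-moderate, and 175, 116, 147, and 235 in DKO-severe, so that the lowest DKO library held 43.3 CPM against at most 7.29 in WT. *Tnfsf8*, CD30 ligand, was at 47.8, 52.4, 54.3, and 81.9 CPM in WT, 192, 428, 213, and 309.7 in DKO-moderate, and 408, 399, 396, and 434 in DKO-severe. The 4 DKO-severe libraries lay close together, and in DKO-moderate the second was at their level and the others below. *Tnfsf11*, RANK ligand, was at 19.6, 21.3, 22.1, and 32.9 CPM in WT, 55.8, 107, 54.3, and 98.8 in DKO-moderate, and 126, 79.3, 103, and 91 in DKO-severe. *Tnfsf4*, OX40 ligand, was much rarer, at 0.217, 0.506, 0.792, and 0.96 CPM in WT, 5.82, 7.63, 5.17, and 4.38 in DKO-moderate, and 6.84, 8.1, 8.22, and 7.67 in DKO-severe. It was among the 5 genes with the smallest spread in DKO-moderate (coefficient of variation 0.24), and DKO-moderate 4 was the lowest there.

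*Angptl2*, a secreted angiopoietin-like protein and one of the most abundant of the 67 transcripts, was at 8.4, 10.9, 11.8, and 39.7 CPM in WT, 94.6, 454, 185, and 478 in DKO-moderate, and 341, 289.6, 442, and 452 in DKO-severe. WT 4 stood apart from the other WT libraries but stayed under the lowest DKO library. *Stc2*, the secreted glycoprotein stanniocalcin 2, was at 0.434, 0.744, 0.928, and 1.63 CPM in WT, 9.39, 15.4, 14.3, and 10 in DKO-moderate, and 18.1, 30.9, 13.2, and 7.88 in DKO-severe. *Adamts3*, a secreted metalloproteinase that processes VEGF-C, was at 1.38, 1.79, 1.17, and 1.56 CPM in WT, 3.12, 24.4, 9.49, and 25 in DKO-moderate, and 19.7, 12, 20.3, and 21.1 in DKO-severe. *Serpina3f*, a serine protease inhibitor of a clustered gene family, was 4.78 times WT in DKO-moderate, and reads shared with near-identical family members were left out of its count. *Enpp2* encodes autotaxin, the secreted enzyme that makes lysophosphatidic acid. It was at 1.46, 1.31, 1.01, and 2.1 CPM in WT, 4.81, 9.39, 3.77, and 3.76 in DKO-moderate, and 19.4, 3.19, 1.51, and 2.32 in DKO-severe, and its DKO-severe mean rested on the first library. Without that library edgeR called *Enpp2* lower in DKO-severe against DKO-moderate, the 1 gene of the 67 to be called there. That library also held 565 CPM of the neutrophil gene *Ngp*, against at most 0.70 CPM in any WT or DKO-moderate library. DKO-severe 2 held 199 CPM of *Ngp* with 3.19 CPM of *Enpp2*. The part of neutrophil RNA in the *Enpp2* values was not tested.

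Receptors and surface proteins included *Il1r1*, the signaling receptor for interleukin 1. It was at 1.95, 1.79, 2.02, and 1.3 CPM in WT, 5.09, 31.2, 15.7, and 8.66 in DKO-moderate, and 14.9, 9.5, 9.13, and 10.8 in DKO-severe, a ratio of 0.731, and here DKO-moderate 3 was above 4. *Folr4* (now *Izumo1r*) encodes folate receptor 4, a surface protein of Treg and anergic CD4+ cells, and was at 132, 137, 115, and 192 CPM in WT, 274, 769.6, 371, and 655 in DKO-moderate, and 279, 587, 437, and 357 in DKO-severe. DKO-moderate 2 and 4 held more than any DKO-severe library. *Klrb1c*, the lectin-like receptor NK1.1, was at 11.4, 20.9, 21.4, and 22.8 CPM in WT, 44.3, 116, 44.7, and 183 in DKO-moderate, and 32.8, 83.6, 95.4, and 67.4 in DKO-severe, and its first DKO-severe library was below every DKO-moderate library. *Nkg7*, a granule membrane protein of cytotoxic cells, was at 21.5, 31, 45.1, and 46.7 CPM in WT, 161, 114, 82.2, and 116 in DKO-moderate, and 92.8, 302, 78.8, and 92.7 in DKO-severe. Its second DKO-severe library was far above the other 3, and that library also had the highest *Cd8a* (7.64 CPM). Apart from it, the DKO-severe libraries of *Nkg7* lay within the DKO-moderate range or just below it.

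*Rnf128* encodes GRAIL, a membrane-bound ubiquitin ligase of T cell anergy. It was at 1.79, 2.44, 2.13, and 4.75 CPM in WT, 34.4, 74.1, 34.4, and 58.1 in DKO-moderate, and 71.5, 83.8, 68.3, and 61.8 in DKO-severe. *Ntrk3*, the receptor for neurotrophin 3, was at 20.8, 18.8, 17.5, and 22.6 CPM in WT, 44.5, 161, 54.9, and 93.4 in DKO-moderate, and 144, 83.7, 129, and 111 in DKO-severe. The second DKO-moderate library was its highest of all 12. *Slc29a1*, an equilibrative nucleoside transporter, had means of 47.9, 159, and 151 CPM in WT, DKO-moderate, and DKO-severe, and *Slco4a1*, an organic anion transporter, had means of 1.45, 14.3, and 18.8 CPM. *Slc29a1* thus ended level with DKO-moderate on average, while its DKO-moderate libraries ran from 95.2 to 215 CPM.

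Genes of signaling, vesicle traffic, and the cytoskeleton made up a further set. *Tbc1d4*, a Rab GTPase-activating protein that holds back glucose transporter vesicles, was the most abundant by CPM. It was at 80.5, 97.9, 101, and 159 CPM in WT, 359, 965, 569, and 814 in DKO-moderate, and 954, 1021, 990.1, and 1086 in DKO-severe, and at a ratio of 1.5 it sat at the upper edge of the range. All 4 of its DKO-severe libraries were within 954 to 1086 CPM, whereas the DKO-moderate libraries spread from 359 to 965. *Synpo*, an actin-associated protein of podocytes and dendritic spines, was at 6.37, 7.26, 6.69, and 17.9 CPM in WT, 47.1, 141, 53.7, and 121 in DKO-moderate, and 121, 117, 147, and 133 in DKO-severe. *Exph5*, a Rab27 effector in exocytosis, was at 1.38, 0.922, 1.28, and 1.74 CPM in WT, 4.25, 21.5, 7.74, and 8.88 in DKO-moderate, and 3.45, 16.1, 11.7, and 5.38 in DKO-severe, with groups of DKO libraries that overlapped throughout. *Fhdc1*, a formin-related protein, reached 12.2 times WT in DKO-moderate and *Rasl11a*, a small GTPase of the Ras family, 6.37 times. *Rasgef1a*, a Ras guanine nucleotide exchange factor, and *Ncald*, the calcium sensor neurocalcin delta, were among the steadiest genes, with DKO-moderate coefficients of variation of 0.25 and 0.13.

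A transcription factor, an RNA-binding protein, and several enzymes are described next. *Nfil3*, a basic leucine zipper factor needed for natural killer and innate lymphoid cell development, was at 3.04, 4.14, 7.07, and 5.27 CPM in WT, 7.63, 34.5, 13.2, and 37.2 in DKO-moderate, and 35.6, 24.6, 37.7, and 33.8 in DKO-severe. Its lowest DKO-moderate library was only 1.08 times its highest WT library, the narrowest gap of the 67 genes. *Igf2bp3*, an RNA-binding protein best known from fetal tissue and tumors, was at 0.461, 0.446, 0.628, and 0.571 CPM in WT, 4.3, 10.1, 5.2, and 8.5 in DKO-moderate, and 5.23, 7.9, 6.56, and 2.37 in DKO-severe. *Casp1*, the protease of the inflammasome that matures interleukin 1β and interleukin 18, was at 16.8, 27.1, 22.2, and 33.6 CPM in WT, 81.6, 81.1, 64.8, and 103 in DKO-moderate, and 40, 126, 107, and 95.9 in DKO-severe, with a DKO-moderate coefficient of variation of 0.19. *Chst11*, a chondroitin sulfotransferase, was at 1.06, 2.17, 3.5, and 5.22 CPM in WT, 21, 51.3, 14.2, and 49.9 in DKO-moderate, and 19, 42.1, 17.4, and 52.8 in DKO-severe. In *Chst11* the libraries of both DKO groups fell into the same low and high values. *Car2*, carbonic anhydrase 2 of red cells and other tissues, was at 4.39, 5.68, 5.46, and 4.77 CPM in WT, 20.7, 20.9, 12.3, and 7.5 in DKO-moderate, and 5.44, 23.9, 6.66, and 10.9 in DKO-severe, and its DKO-severe libraries 1 and 3 were near WT. The red cell gene *Alas2* was at most 1.76 CPM in any library. The hemoglobin gene *Hba-a1* was at 31.6, 29.6, 8.55, and 8.78 CPM in DKO-severe, against at most 12.8 CPM in WT and 5.39 CPM in DKO-moderate. The part of red cell RNA in the *Car2* values was not tested. *Prelid2*, a protein of the family that carries lipids in mitochondria, was 8.15 times WT in DKO-moderate, and the predicted transcript *4930452B06Rik* was 14.4 times WT at a DKO-moderate mean of 8.08 CPM.

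The remaining 31 genes, of which *Ntrk3* and *Serpina3f* are given above, had DKO-moderate means of 5.91 to 88.4 CPM and 3.19 to 6.13 times WT (median 4.40). Several act on the cytoskeleton or on membranes. They are *Dst* (dystonin, a linker of cytoskeletal filaments), *Smtn* (smoothelin, an actin-bound protein of smooth muscle), *Spnb1* (β-spectrin), *Marcksl1* (a MARCKS-like actin- and calmodulin-binding protein), *Dock4* (an exchange factor for small GTPases), *Sh3gl3* (an endophilin), and *Atp9a* (a P4-type ATPase of membranes). *Marcksl1* had means of 21, 73.5, and 89.1 CPM in WT, DKO-moderate, and DKO-severe. *Ptprv*, a receptor-type tyrosine phosphatase, had means of 11.3, 63.9, and 90.1 CPM, *Plekho1*, an adaptor with a pleckstrin homology domain, of 14.7, 83.9, and 93.5 CPM, and *Decr1*, an enzyme of the mitochondrial oxidation of unsaturated fatty acids, of 17.2, 54.8, and 64.4 CPM. Channels and organelle proteins were *Ryr3*, a calcium release channel of the endoplasmic reticulum, and *Atg9b*, a membrane protein of autophagy. Regulators were *Grhl1*, a grainyhead-like transcription factor, *Fhl2*, a LIM domain cofactor, the zinc finger genes *Zfp821* and *Zfp870*, and *Trim2*, a ubiquitin ligase. Also among the 31 were *Fam43a*, *Rundc3a*, *Frmd4a*, *B4galnt4*, *Nhedc2* (now *Slc9b2*), *Cenpv*, *Caskin2*, *Gprasp2*, *Lhpp*, and the transcripts *1500004A13Rik*, *Gm19422*, and *Gm16702*. DKO-moderate 2 and 4 were both above 1 and 3 in 23 of these 31 genes and in 26 of the other 36.

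**Figure D2:**
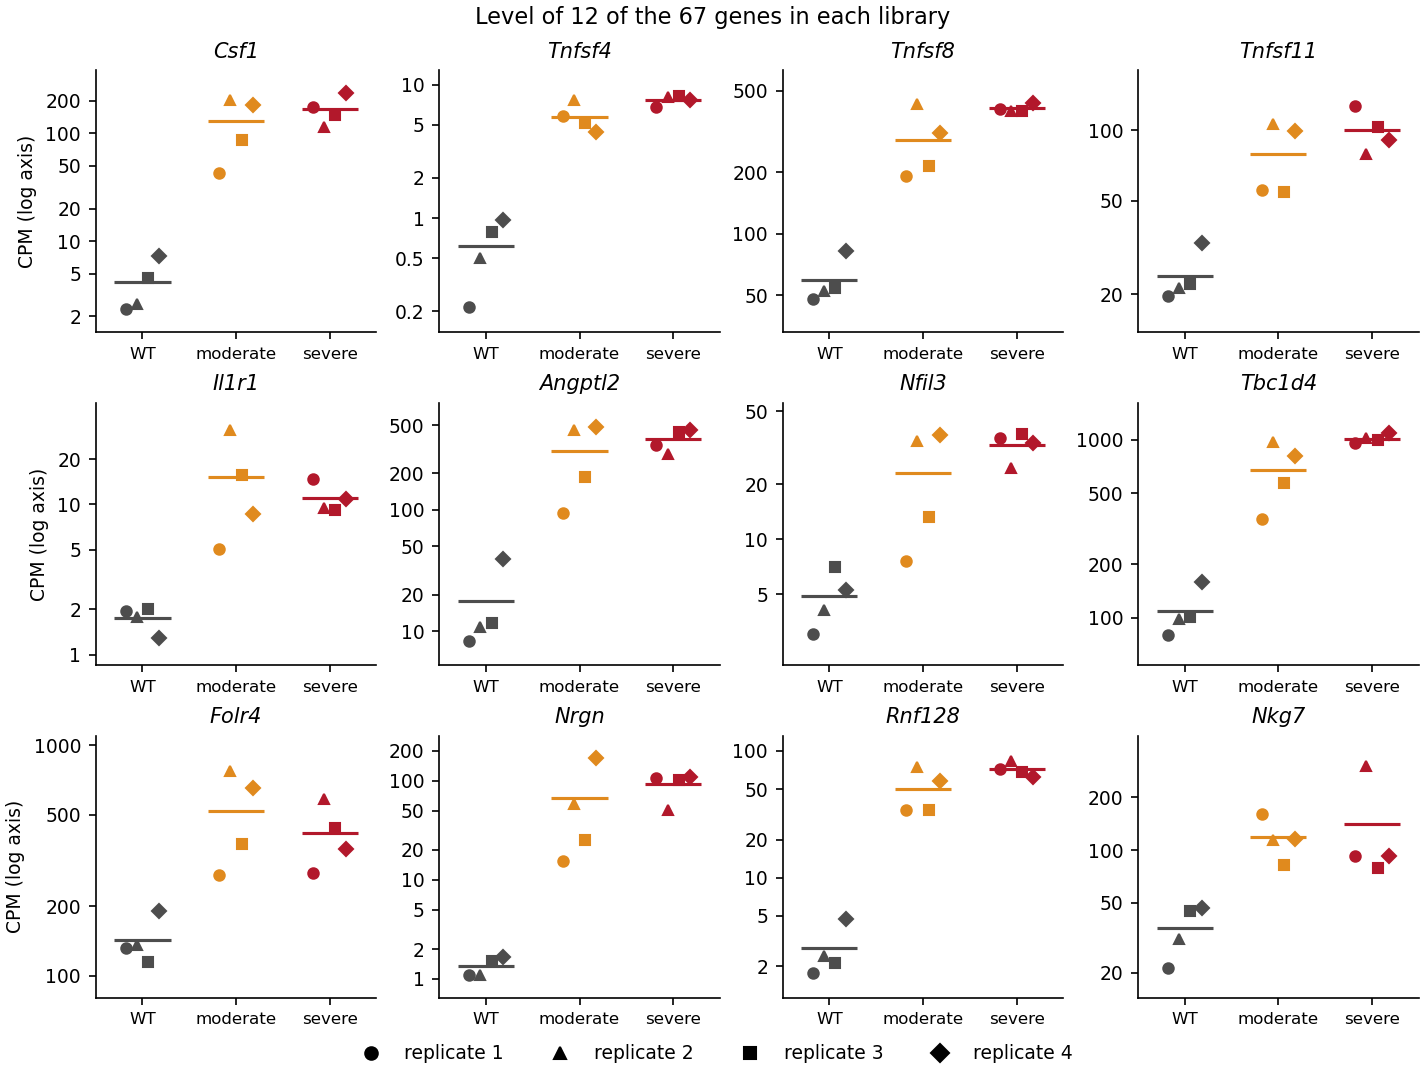
CPM (log axis) of 12 of the 67 genes in each library of WT, DKO-moderate, and DKO-severe, with a marker shape for each replicate number and a bar at the group mean. In *Csf1*, *Angptl2*, *Tbc1d4*, *Folr4*, and *Rnf128* the DKO-moderate libraries 2 and 4 (triangle and diamond) lie above 1 and 3 (circle and square), and *Tnfsf4* and *Nkg7* do not show this order.

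Per length, the order of abundance changed. Divided by the bases covered by a gene's exons in the GENCODE annotation of GRCm38, the highest DKO-moderate mean level was that of *Folr4* (223 CPM per kb), followed by *Nkg7* (129), *Tbc1d4* (88.2), *Tnfsf8* (75.1), *Casp1* (55.3), and *Angptl2* (48.2). *Fbn2*, the largest rise, was at 13.05 CPM per kb. Of the 67 genes, 63 were protein coding, 2 were processed transcripts, 1 was a lincRNA, and 1 did not match the annotation. They lay on 19 chromosomes, with 7 each on chromosomes 3 and 7 as the highest number, and 1 pair lay within 100 kb of each other, *Nkg7* and *Vsig10l*, 24.9 kb apart on chromosome 7.

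The 250 bases before the gene start were read for the genes with a RefSeq entry (build GRCm38.p6), which were 48 of the 67 genes and 11728 of all tested genes. CpG dinucleotides are the sites TET proteins act on, and promoters range from CpG islands to windows almost without CpG. The observed over expected number of CpG in these windows had a median of 0.56 (quartiles 0.29 and 0.83) in the 48 genes, 0.64 in 222 of the 294 genes that were higher again in DKO-severe, and 0.70 (quartiles 0.43 and 0.87) in all tested genes. It was under 0.25 in 12 of the 48 (25.0%) against 13.4% of all tested genes. The 12 included *Klrb1c*, *Nkg7*, *Folr4*, *Casp1*, *Tnfsf11*, and *Il1r1*. At the other end, 16 of the 48 (33.3%, against 42.9% of all) had 0.75 or more, among them *Nfil3*, *Rnf128*, *Igf2bp3*, *Stc2*, and *Chst11*. These shares were not tested, since the 67 genes were chosen with these data in view, and no methylation was measured here.

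Of the 6 windows below, picked to span this range, *Folr4* and *Nkg7* hold 2 CpG each, *Angptl2* 9, *Csf1* 10, *Rnf128* 21, and *Nfil3* 43. They lie at chr9:14903768-14904017 (minus strand), chr7:43436888-43437137 (plus strand), chr2:33215711-33215960 (plus strand), chr3:107760470-107760719 (minus strand), chrX:139610370-139610619 (plus strand), and chr13:52981040-52981289 (minus strand). Each runs 5′ to 3′ on the strand of the gene and ends at the base before the RefSeq start, and capitals mark each CpG. That start is the outermost GENCODE start for *Csf1*, 108 bases before it for *Angptl2*, and 34, 65, and 182 bases inside the gene for *Nfil3*, *Nkg7*, and *Folr4*. For *Rnf128* it lies 47304 bases inside, at the start of a shorter transcript. Of the 48 genes, 42 had both starts within 300 bases.
Folr4: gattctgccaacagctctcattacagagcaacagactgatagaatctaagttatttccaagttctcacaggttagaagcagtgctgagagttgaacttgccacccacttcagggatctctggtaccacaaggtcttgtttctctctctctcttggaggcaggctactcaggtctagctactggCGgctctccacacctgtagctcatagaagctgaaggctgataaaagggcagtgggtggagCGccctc
Nkg7: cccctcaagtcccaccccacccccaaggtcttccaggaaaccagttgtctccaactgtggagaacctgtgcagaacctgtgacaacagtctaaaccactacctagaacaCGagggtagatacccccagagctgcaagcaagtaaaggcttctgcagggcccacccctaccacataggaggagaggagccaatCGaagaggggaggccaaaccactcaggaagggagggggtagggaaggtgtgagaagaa
Angptl2: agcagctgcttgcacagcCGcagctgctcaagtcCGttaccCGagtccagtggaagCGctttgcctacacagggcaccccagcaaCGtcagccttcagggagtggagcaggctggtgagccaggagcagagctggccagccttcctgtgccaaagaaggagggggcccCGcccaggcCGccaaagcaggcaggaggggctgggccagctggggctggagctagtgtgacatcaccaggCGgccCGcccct
Csf1: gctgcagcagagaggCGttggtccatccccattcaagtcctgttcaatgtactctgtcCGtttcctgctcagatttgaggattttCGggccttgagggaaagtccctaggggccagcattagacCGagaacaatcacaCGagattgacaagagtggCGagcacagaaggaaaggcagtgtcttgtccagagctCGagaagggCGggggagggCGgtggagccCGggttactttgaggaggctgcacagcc
Rnf128: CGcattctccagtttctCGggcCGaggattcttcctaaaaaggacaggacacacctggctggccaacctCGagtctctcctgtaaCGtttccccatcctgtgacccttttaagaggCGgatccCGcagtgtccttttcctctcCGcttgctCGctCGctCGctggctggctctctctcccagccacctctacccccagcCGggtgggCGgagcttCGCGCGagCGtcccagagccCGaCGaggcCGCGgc
Nfil3: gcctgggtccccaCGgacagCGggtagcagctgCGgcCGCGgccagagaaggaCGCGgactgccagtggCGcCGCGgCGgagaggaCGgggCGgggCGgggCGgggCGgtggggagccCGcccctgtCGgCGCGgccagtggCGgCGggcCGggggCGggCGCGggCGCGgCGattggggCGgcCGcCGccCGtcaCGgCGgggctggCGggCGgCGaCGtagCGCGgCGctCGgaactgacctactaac

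The same windows were searched on both strands for 14 short motifs. The shares of 6 of them are given first. The E-box CAGCTG was in 11 of 48 windows (22.9%) against 11.9% of all tested genes, the NF-kB motif (GGGA and CC with any 4 bases between them) in 29.2% against 22.3%, the STAT motif TTCNNNGAA in 8.33% against 6.04%, the RUNX motif TGTGGT in 12.5% against 11.5%, the NFAT motif TGGAAA in 12.5% against 15.3%, and the AP-1 motif TGANTCA in 0 of 48 against 4.52%. The 11 genes with the E-box included *Angptl2*, *Nfil3*, *Chst11*, and *Slc29a1*, and the window of *Angptl2* shown above holds it near its 5′ end and again in its 3′ part. For the T-box motif GGTGTGA, the TCF motif CCTTTGA, the core TGACG of the CRE, the ETS motif CCGGAAG, the GC box GGGCGG, the TATA box TATAAA, the FOXO motif TGTTTAC, and the KLF motif GGGTGTGG, the share in the 48 genes differed from that in all tested genes by -8.61 to 3.16 percentage points. The largest of these differences were those of the ETS motif (4.17% against 12.8%) and the core TGACG (18.8% against 25.8%). A letter match of this length is a description of the window and was not tested.

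**Figure D3:**
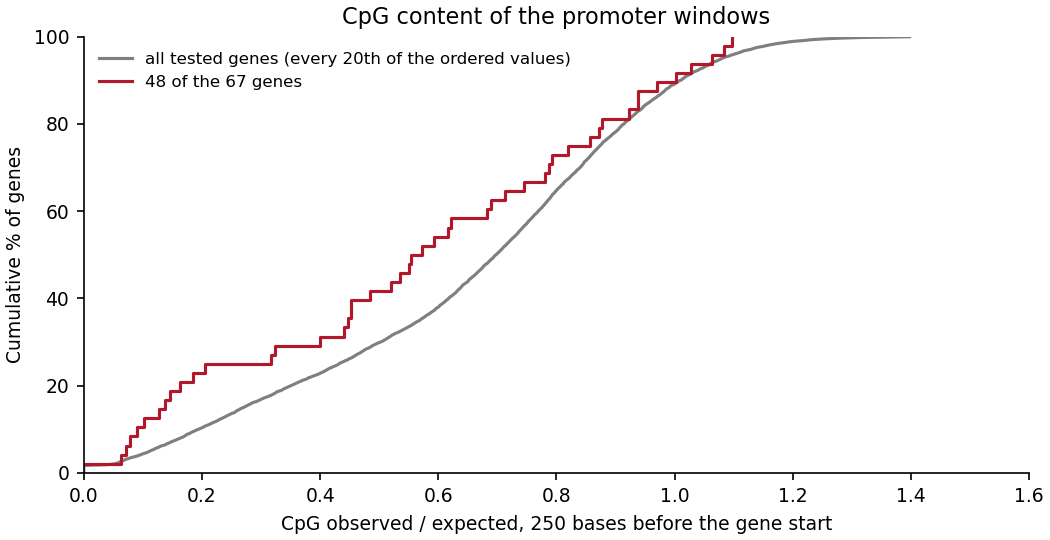
Cumulative percent of genes (upward) by the observed over expected number of CpG in the 250 bases before the gene start (across), for 48 of the 67 genes (red) and for all 11728 tested genes with an entry (grey, drawn from every 20th ordered value). The red line runs above the grey one over most of the range, with 25.0% against 13.4% of genes under 0.25.

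The DKO-moderate libraries were not alike in these genes. DKO-moderate 2 was the highest of its group in 47 of the 67 genes and DKO-moderate 4 in 17, while DKO-moderate 1 was the lowest in 47. Both 2 and 4 were above both 1 and 3 in 49 of the 67 genes, 73.1%, as they were in 66.7% of the 294 genes higher again in DKO-severe and in 35.3% of all tested genes. Measured against the DKO-severe mean of each gene, the median over the 67 genes was 0.52 in DKO-moderate 1, 1.21 in 2, 0.57 in 3, and 0.95 in 4. Single libraries lay within 0.67 to 1.5 times the DKO-severe mean in 16, 48, 23, and 38 of the 67 genes. Libraries 1 and 3 were below that range in 50 and 44 genes, and 2 and 4 above it in 17 and 14. The match of the group means was an average of libraries near 0.5 and near 1 rather than 4 libraries at the same level.

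The coefficient of variation over the 4 libraries had a median of 0.47 in DKO-moderate and 0.25 in DKO-severe in the 67 genes. The medians were 0.43 and 0.28 in the 294 genes higher again in DKO-severe, and 0.22 and 0.17 in all tested genes. Among the 67, the coefficient of variation was largest in DKO-moderate for *Nrgn*, *Sccpdh*, *Il1r1*, *Fbn2*, and *Exph5*, and smallest for *Ncald*, *Casp1*, *Tnfsf4*, *Rasgef1a*, and *Stc2*. WT 4 was the highest of its group in 50 of the 67 genes (74.6%). It was highest in 76.2% of the 294 genes and in 28.2% of all tested genes. The median over the 67 genes ran from 0.13 to 0.22 of the DKO-severe mean in the WT libraries and from 0.94 to 1.01 in the DKO-severe libraries.

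**Figure D4:**
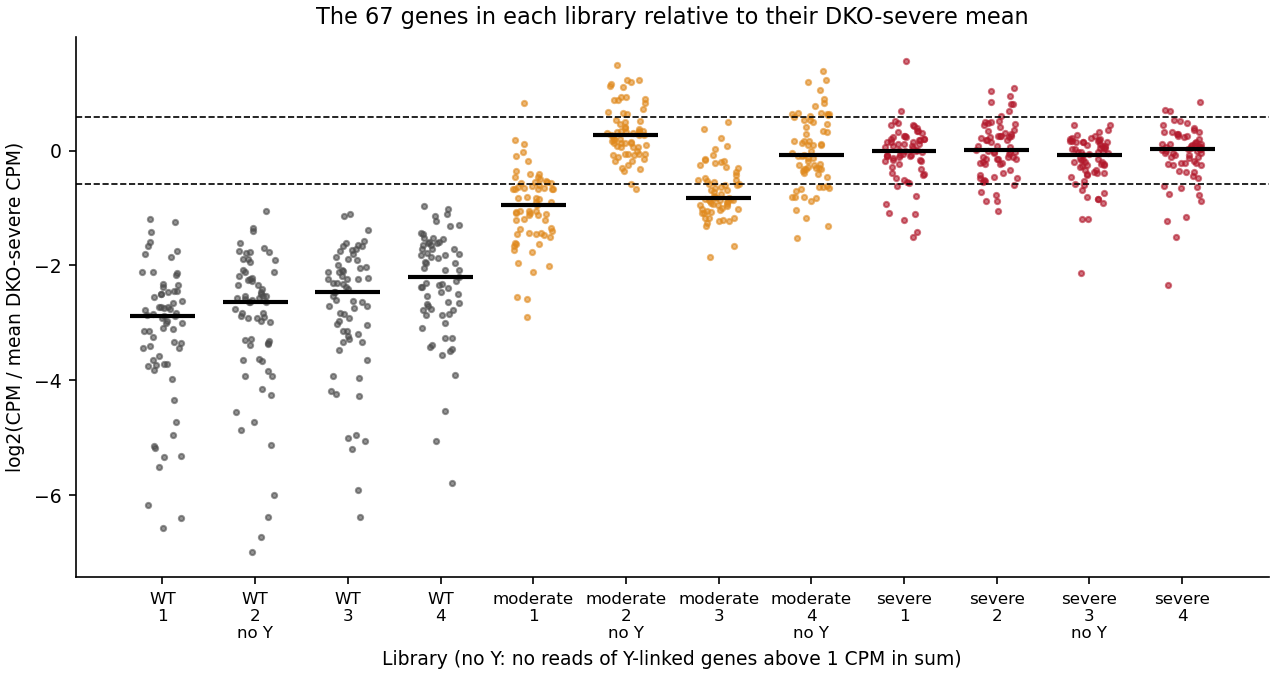
The log2 ratio of each gene's CPM to its mean DKO-severe CPM (upward) in each of the 12 libraries (across), 1 point per gene for the 67 genes, with a black bar at the median and dashed lines at ratios of 0.67 and 1.5. Libraries marked no Y have under 1 CPM of 4 Y-linked genes in sum. At the median, DKO-moderate 2 (1.21) lies above the DKO-severe libraries (0.94 to 1.01), DKO-moderate 4 (0.95) in their range, and DKO-moderate 1 and 3 below the lower dashed line.

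Several measures moved with this division. Reads of Y-linked genes, which are absent in female mice, summed to 526 and 440.4 CPM in DKO-moderate 1 and 3 and to 0 and 0.03 CPM in 2 and 4. They were also absent (at most 0.61 CPM) in WT 2 and DKO-severe 3, and at 390 to 477 CPM in the other 6 libraries. *Xist*, a transcript of female cells, was at 578 CPM in WT 2, 1184 and 468 CPM in DKO-moderate 2 and 4, and 1174 CPM in DKO-severe 3. In every other library *Xist* was at most 4.13 CPM. By these reads the libraries without Y-linked reads are those of female mice, though no sex is given for single libraries in the labels used here. *Tet3* was at 159, 114, 176, and 92.3 CPM in the 4 DKO-moderate libraries, against 158 to 199.8 CPM in WT and 92.5 to 109 CPM in DKO-severe, so 2 and 4 were near DKO-severe and 1 and 3 near WT. These counts over the whole gene do not resolve its floxed exons and so do not show how far *Tet3* was deleted. *Tet1*, the remaining member of the family, was at 21.8, 13.1, 22.7, and 10.2 CPM, all between WT (36.6 to 42.4 CPM) and DKO-severe (2.15 to 7.54 CPM). The Tfh genes *Il21* and *Pdcd1* had the same order, at 54.5, 245, 109, and 178 CPM and 88.1, 244, 117, and 238 CPM. Of 14 mast cell and basophil genes, the summed level was 34.7 and 39.98 CPM in DKO-moderate 2 and 4 and 5.99 and 7.45 CPM in 1 and 3, against 6.07 to 9.53 in WT and 22.1 to 46.6 in DKO-severe. Monocyte and macrophage genes (23) summed to 256, 640.2, 276, and 476 CPM in DKO-moderate, against 38.7 to 428 in WT and 761 to 1438 in DKO-severe, and plasma cell genes (9) to 191, 299, 208, and 330.5 CPM, against 109 to 137 in WT and 419.8 to 569 in DKO-severe. The plasma cell list has 18 genes, of which these 9 had counts. It summed to 109, 116, and 123 CPM in WT 1, 2, and 4, where the B cell list summed to 16.2 to 29.9 CPM. How much of the plasma cell sum came from plasma cells was not tested. Of the monocyte and macrophage sum, *Cybb* alone held 102, 385, 163, and 206 CPM in DKO-moderate, and 361 to 555 CPM in DKO-severe. *Csf1r*, on the same list, was at 3.15, 10.1, 2.30, and 9.47 CPM in DKO-moderate and 14.1 to 44.7 CPM in DKO-severe. The myeloid gene *Lyz2* was at 2.14, 19.7, 1.19, and 18 CPM in DKO-moderate. The basophil protease *Mcpt8* was at 0.0755, 6.07, 0.0712, and 10.2 CPM in DKO-moderate. The part of these measures in the level of the 67 genes was not tested, and in DKO-moderate the absence of Y-linked reads, the higher sums of these lists, and the higher level of the 67 genes fell on the same 2 libraries and cannot be told apart.

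Within libraries of one kind the 2 DKO groups stood in another relation. This split was made after the values were seen. In the libraries with Y-linked reads (3 WT, 2 DKO-moderate, 3 DKO-severe), the ratio of DKO-severe to DKO-moderate means had a median of 1.79 over the 67 genes. It was above 1.5 for 49 genes, within 0.67 to 1.5 for 18, and below for 0. In the libraries without them (1 WT, 2 DKO-moderate, 1 DKO-severe) the median was 0.78, with 46 genes within the range, 21 below, and 0 above. The ratio was higher among libraries with Y-linked reads in 66 of the 67 genes (98.5%). The same held for 94.2% of the 294 genes higher again in DKO-severe and 62.7% of all genes with both ratios. Over all tested genes, the ratio was above 1.5 in 27.4% with Y-linked reads and in 17.4% without, and its medians were 1.11 and 0.996. The split sets DKO-moderate 1 and 3 apart from 2 and 4, whose levels are given above, so these values restate that difference, and 1 WT and 1 DKO-severe library stand alone in it. DKO-moderate was 3.09 times WT (median) with Y-linked reads and 7.02 times without. The 294 genes that were higher again had medians of 3.47 and 1.87 for the same 2 ratios of DKO-severe to DKO-moderate. The 18 genes that were within the range in libraries with Y-linked reads included *Tnfsf4*, *Il1r1*, *Casp1*, *Nkg7*, *Klrb1c*, *Folr4*, *Igf2bp3*, *Smtn*, and *Slc29a1*, though their ratios differed from those over all libraries (for *Klrb1c* 1.38 in place of 0.72, for *Folr4* 1.26 in place of 0.80, and for *Il1r1* 1.13 in place of 0.73). *Csf1*, *Fbn2*, *Angptl2*, *Nrgn*, *Rnf128*, *Tnfsf8*, *Tnfsf11*, *Tbc1d4*, and *Nfil3* were above 1.5 there.

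The rule applied to the libraries with Y-linked reads alone gave 16 genes, 12 of them among the 67: *Tnfsf4*, *Il1r1*, *Casp1*, *Nkg7*, *Exph5*, *Fhdc1*, *Serpina3f*, *Smtn*, *Rasgef1a*, *Spnb1* (now *Sptb*), *Car2*, and *4930452B06Rik*. With DKO-moderate 2 and 4 left out and all other libraries kept, it gave 17 genes, 13 of them among the 67. Without DKO-moderate 2 alone it gave 34 genes, 30 of them shared, and edgeR then called *B4galnt4*, *Ntrk3*, and *Tnfsf8* as higher in DKO-severe against DKO-moderate. Without DKO-moderate 4 it gave 55 genes, 45 of them shared, and edgeR called *Nrgn* higher. With a term for Y-linked reads in edgeR, 65 of the 67 genes passed as higher in DKO-moderate than in WT (not *Enpp2* and *Marcksl1*) and *Trim2* passed as higher in DKO-severe against DKO-moderate.

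**Figure D5:**
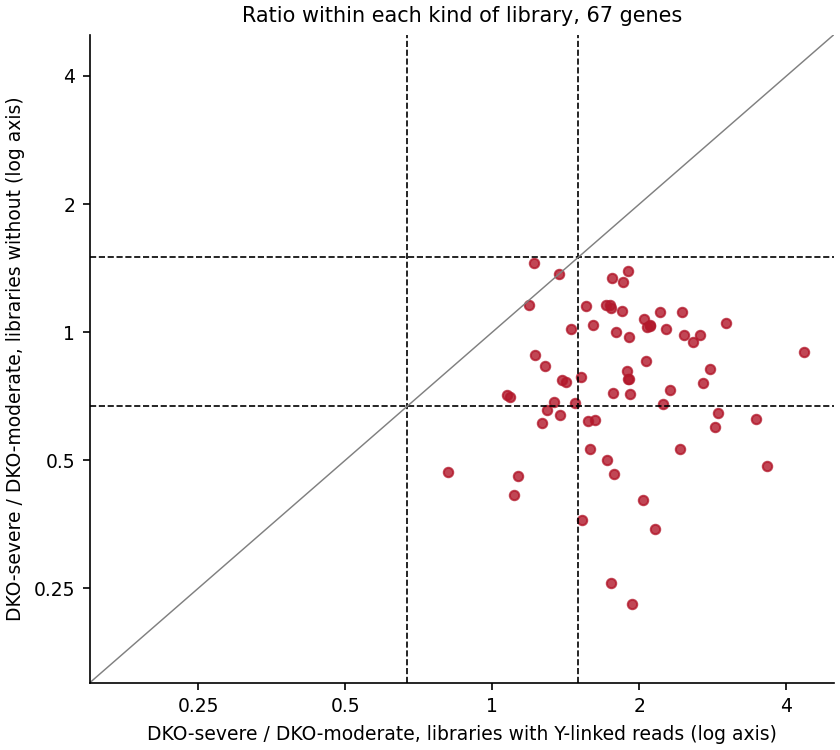
The ratio of mean DKO-severe to mean DKO-moderate CPM of the 67 genes in the libraries with Y-linked reads (across, log axis) and in those without (upward, log axis), with dashed lines at 0.67 and 1.5 and a grey line of equality. Nearly all points (66) lie under the line of equality, with 49 to the right of 1.5 and none above 1.5 in the upward direction.

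The genes nearest each threshold were as follows. At the upper limit of the ratio, *Ncald* (1.491) and *Tbc1d4* (1.497) were inside and *Cdh23* (1.505) and *Npas4* (1.505) outside. At the lower limit, *Stard10* (0.67) and *Klrb1c* (0.72) were inside, and *Gzma*, granzyme A (0.66), and *Il4*, interleukin 4 (0.64), were outside. At the fold of 3, *Car2* (3.03) and *Kctd17* (3.18) were inside and *Egln3* (2.97) outside. At the minimum in DKO-moderate, *Vsig10l* (5.39 CPM) and *Enpp2* (5.43 CPM) were inside and *Asns* (4.601 CPM) and *Icam5* (3.65 CPM) outside. At the minimum in WT, *Igf2bp3* (0.53 CPM) and *4930452B06Rik* (0.56 CPM) were inside, and *Gjb2* (0.49 CPM) and *Lpar3* (0.46 CPM) outside, with *Lpar3* at 52.1 times WT in DKO-moderate. The order of DKO-moderate and WT libraries alone kept out 1 gene, *Cttn*, whose ratio of the lowest DKO-moderate to the highest WT library was 0.35, and *Nfil3* (1.08) and *Cpne7* (1.09) had the smallest such ratio among the 67.

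Of 32 lists of genes for T cell states, pathways, and other cells, 11 held at least 1 of the 67 genes, and 12 of the 67 genes were on a list. The 24 tested genes of the Tfh list included 3 of the 67 (*Tnfsf8*, *Angptl2*, and *Klrb1c*) and 9 of the 294. In edgeR, 20 of the 24 passed as higher in DKO-moderate than in WT (median log2 fold change 2.03, against 0.00 over all tested genes), 23 in DKO-severe (median 2.62), and 8 as higher in DKO-severe against DKO-moderate (median 0.69). Over all tested genes, 12.3%, 26.6%, and 9.41% passed as higher in these comparisons, in the same order. *Il21*, the cytokine of Tfh cells, with a log2 fold change of 4.12 in DKO-moderate (SE 0.50, edgeR adjusted p = 0.000347), had the largest change of the others on that list. In DKO-severe against DKO-moderate, *Il21* (0.95, edgeR adjusted p = 0.136), the receptor gene *Pdcd1* (0.94, 0.1 as adjusted p), the HMG-box factor *Tox2* (1.12, 0.101), and the factor *Cebpa* (0.69, 0.299) did not pass.

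The 24 tested genes of the costimulatory TNF family and its partners included *Tnfsf4*, *Tnfsf8*, and *Tnfsf11* among the 67 and 4 of the 294. On this list 12 genes passed as higher in DKO-moderate and 1 as lower, 16 and 4 in DKO-severe, and 7 as higher and 2 as lower in DKO-severe against DKO-moderate. Of the 16035 tested genes, 1974 (12.3%) passed as higher and 760 as lower in DKO-moderate, and 4270 (26.6%) and 4158 in DKO-severe. In DKO-severe against DKO-moderate, 9.41% of them passed as higher and 10.7% as lower. The costimulatory receptors *Tnfrsf4* (OX40) and *Icos* and the ligand *Tnfsf9* (4-1BB ligand) rose further, with log2 fold changes of 1.12, 0.93, and 1.24 in DKO-severe against DKO-moderate (SE 0.33, 0.25, and 0.21; edgeR adjusted p = 0.0317, 0.023, and 0.00468). *Tnfrsf4* was at 14.6, 16.4, 16.4, and 27.6 CPM in WT, 62.7, 179.6, 69.6, and 176 in DKO-moderate, and 367, 221, 261, and 271 in DKO-severe (for its ligand *Tnfsf4*, the rule itself set the limit on a further rise). *Cd70*, a further ligand on the list, was rare, at 0 to 0.0813 CPM in WT, 0.0475 to 0.785 in DKO-moderate, and 0.498 to 3.81 in DKO-severe, and it passed as higher than WT in both (log2 fold changes 3.34 and 5.71, SE 1.04 and 1.06, edgeR adjusted p = 0.046 and 0.000836).

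The other 9 lists with a member held 1 each: *Nkg7* on the list of 27 Th1 and cytotoxic genes, *Il1r1* on those of 14 Th17 genes and 41 cytokine receptors, *Folr4* on 27 Treg signature genes, *Klrb1c* on 32 innate-like T and NK receptors, *Csf1* on 30 cytokines, *Nfil3* on 52 transcription factors of activated T cells, *Enpp2* on 15 ectoenzymes and purinergic genes, and *Car2* on 12 erythroid and platelet genes. Of the tested genes, 0.42% were among the 67 and 1.83% among the 294, so that a list of this size without a member is no result. Of 21 such lists, that of proliferation had 20 of its 40 genes among the 294 that were higher again. Of the 40, 35 passed as higher in DKO-moderate (12.3% of all tested genes) and 37 as higher in DKO-severe against DKO-moderate (9.41% of all). These lists were chosen with earlier results of these data known, and no list was tested against other genes.

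Reads on genes ranged from 29254260 to 42133536 per library. *Cd4* was at 815 to 1445 CPM throughout, and *Foxp3*, which the sort selects against, at 0.14 to 2.86 CPM. *Tet2* was at 40.9 to 59.0 CPM in WT, 35.5 to 58.5 CPM in DKO-moderate, and 59.7 to 71.8 CPM in DKO-severe. Counts over whole genes do not resolve the floxed exons and so do not check the labels. 3 libraries stood apart by genes of other cells. The B cell list (22 genes) summed to 848, 435, and 1482 CPM in WT 3 and DKO-severe 1 and 2, against 16.2 to 230.2 CPM elsewhere, and the neutrophil list (26 genes) to 2962 and 1340.2 CPM in DKO-severe 1 and 2, against 15.6 to 172 CPM elsewhere. The defining neutrophil gene *S100a8* was at most 4.34 CPM outside these 3 libraries. With the 3 libraries left out, the rule gave 81 genes, 51 of them among the 67, and each of the 2 DKO-severe libraries left was above each WT library for all 81.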

How the data were processed

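RNA sequencing libraries of CD4+ YFP(FOXP3)- T cells from 4 WT, 4 DKO-moderate, and 4 DKO-severe mice were analysed. Per the labels and the methods, the authors aligned directional libraries to mm10 with STAR 2.7.11, kept reads with a single position, and deposited raw counts per gene from htseq-count in reverse-stranded mode. The annotation behind the counts is not given in the sources used here. Counts were divided by the sum over genes, without the 5 rows of unassigned reads, and multiplied by 1000000 (CPM). Depth was 29254260 to 42133536 reads on genes, and unassigned records made up 18.5% to 23.7% of the records of a library.

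The 67 genes and all gene lists were chosen with earlier results of these data known. Genes with 10 or more reads summed over any 1 group (16035) were scaled by TMM and fitted in 3 groups with edgeR 4.0.16 (quasi-likelihood F test, Benjamini-Hochberg, threshold 0.05) in R 4.3.3. All 67 genes passed this filter. SEs were taken as the log2 fold change over the root of its F statistic. P-values set the difference between groups against the spread between mice, of which all 3 groups share 1 estimate per gene. DESeq2 1.42.0, other scalings, filters, and thresholds, the replicate number as a block, and leaving out each library in turn were the alternatives. Replicate libraries differed by far more than sampling noise (lowest chi-square over its degrees of freedom 22.9), so none was a copy. The fit was also run on simulated counts with known changes, as a check of the code only. Python 3.11.15, pandas 2.3.3, and matplotlib 3.10.9 were used.

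The rule for named genes took the 20 with the largest rise, the 10 most abundant, those on a list, the 5 steadiest and 5 most variable in DKO-moderate, the 2 nearest each threshold on either side, up to 4 other genes of a list with at least 2 of the 67, neighbours within 100 kb, and check genes. The rule covers 36 of the 67 genes; the other 31 are named for completeness, and those of them given with single values or calls were picked after their values were seen. A few genes these rules would name are not reported here. Positions and exon lengths come from GENCODE vM21 (GRCm38), in which 22424 of 26608 gene names matched by symbol and 2089 by an older symbol. Promoter windows come from RefSeq (GRCm38.p6), the first entry per gene, and for 42 of the 48 genes the bases after the start were found in a GENCODE transcript of that gene.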

Additional observations from a re-analysis of the deposited data

Results flagged for a closer look

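Among the 67 genes, the 201 groups of 4 libraries were searched for a library whose gap to the nearest other took up more of the range of its group than Dixon's 95% limit allows. The rate of 1 in 20 behind that limit holds for independent normal values. These groups share the same 12 libraries and the rule used their values, so their count is not set against that rate. Such a library was found in 14 groups (6.97%). Of these, 7 were the fourth WT library, each time the highest of its group: 39.7 CPM for *Angptl2* (others 8.4 to 11.8), 3.17 CPM for *Caskin2* (others 1.247 to 1.53), 3.79 CPM for *Fbn2* (others 1.19 to 1.53), 3.3 CPM for *Prelid2* (others 1.6 to 1.73), 3.92 CPM for *Sccpdh* (others 1.22 to 1.67), 4.2 CPM for *Spnb1* (others 1.87 to 2.21), and 17.9 CPM for *Synpo* (others 6.37 to 7.26). The Tfh genes *Il21* and *Pdcd1* were also highest in that library among the WT libraries, at 15.8 CPM (others 3.93 to 6.96) and 47.7 CPM (others 12.8 to 22.4). Without it the rule gave 77 genes, 65 of them among the 67. In DKO-moderate, the second library stood apart at 10.3 CPM for *1500004A13Rik* (others 4.51 to 5.32) and at 10.1 CPM for *Caskin2* (others 5.34 to 5.76). In DKO-severe, the first library stood apart at 19.4 CPM for *Enpp2* (others 1.51 to 3.19), the second at 12 CPM for *Adamts3* (others 19.7 to 21.1), 302 CPM for *Nkg7* (others 78.8 to 92.8), and 50.1 CPM for *Nrgn* (others 103 to 109), and the third at 13.8 CPM for *Stard10* (others 25.2 to 27.2). The second DKO-severe library is 1 of the 3 with B cell genes, and the part of those cells in its values was not tested.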

How the results depend on the processing

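The number of genes the rule finds depended on its thresholds. It was 177 at a fold of 2 and 40 at a fold of 4, and 26 with a narrower allowed ratio (from 0.8) and 157 with a wider one (0.5 to 2), with the DKO-severe libraries all above WT in 160, 40, 25, and 153 of them. It stayed between 50 and 79 under TMM or DESeq2 scaling, medians in place of means, and other CPM minimums. Leaving out each library in turn it ran from 34 (without DKO-moderate 2) to 100 (without DKO-moderate 1), of which 33 to 98 had all DKO-severe libraries above WT. In alternatives added after the values were seen, the libraries with Y-linked reads alone gave 16 and 14, and leaving out DKO-moderate 2 and 4 gave 17 and 15. The cause of these changes was not tested.

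In edgeR, 2734 genes passed in DKO-moderate against WT, 8428 in DKO-severe against WT, and 3217 in DKO-severe against DKO-moderate. Leaving out each library in turn gave 1616 (without WT 1) to 2920, 7253 to 9006, and 1646 (without DKO-moderate 1) to 3670, and without the 3 libraries with B cell or neutrophil genes the last count was 2055, with fewer libraries fitted. In DESeq2 the counts were 3911, 8480, and 4151. Of the 67 genes, 62 to 67 passed in DKO-moderate against WT, 61 to 67 in DKO-severe against WT, and 0 to 3 in DKO-severe against DKO-moderate under all alternatives. TMM lowered log2 differences from WT by 0.08 in DKO-moderate and 0.18 in DKO-severe relative to raw totals, and with library size alone the genes called higher and lower became 5460 and 2756 in place of 4270 and 4158 in DKO-severe against WT, and 1886 and 1021 in place of 1509 and 1708 in DKO-severe against DKO-moderate. Of 377 recomputed log2 ratios of DKO-moderate to WT for 29 named genes, 352 moved by less than 1 SD and 0 changed sign. The SD was that of log2 CPM over the DKO-moderate libraries, so it holds the difference between 1 and 3 and 2 and 4. Apart from *Stc2* without WT 4, the 25 that moved more fell in 2 settings. These were the libraries with Y-linked reads alone and DKO-moderate 2 and 4 left out, and each of these ratios became smaller.

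Residuals of libraries with the same replicate number (correlations -0.29 to 0.26) spanned a range like those with different numbers (-0.35 to 0.34), so the numbers were not treated as pairs. With the replicate number as a block, 2201, 7794, and 2321 genes passed, and 65, 65, and 0 of the 67. Counting error limits genes near the CPM minimum, and the number of mice limits the rest.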
